A study of Mus musculus with 16 samples.

Results

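This comparison concerns AML1-ETO9a and the control vector in bone marrow progenitors of Booreana mice, on 4 arrays of Booreana AML1-ETO9a cells and 4 arrays of Booreana control cells, 8 of the 16 arrays in the series. The arrays were chosen by their titles alone, Boo AML1-ETO9a replicates 1 to 4 and Boo Control replicates 1 to 4. Marrow of 4 Booreana mice aged 8 weeks was enriched for c-Kit (CD117) with magnetic beads and spun with retrovirus, MSCV-AML1-ETO9a-I-GFP for the AML1-ETO9a group and MSCV-I-GFP for the control group. Cells of both groups then grew in medium with 20% fetal calf serum, IL-3, IL-6 and SCF, and those positive for green fluorescent protein and c-Kit were sorted after 48 hours. Both groups therefore shared the Booreana mutation, the green fluorescent protein, the cytokines and the sort. The other 8 arrays held age-matched wild-type C57Bl/6 cells with the same viruses, 4 with AML1-ETO9a and 4 with the control vector. They entered the model so that all groups shared 1 estimate of the spread, and they are used below only to show where the Booreana response differed. The labels do not tie an array to an animal or say whether marrow was pooled, so p-values measure the spread between arrays, which may be technical. The oncogene was driven by a viral vector and not from its own gene, and cells that had lost c-Kit by the time of the sort were not measured.

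AML1-ETO9a joins the DNA-binding runt domain of RUNX1, a transcription factor of blood cells, to a shortened part of ETO (RUNX1T1), a protein that recruits corepressors and histone deacetylases. It is a splice form of the fusion found in acute myeloid leukemia with a translocation of chromosomes 8 and 21, and RUNX1 and its fusions bind DNA at the motif TGTGGT. Booreana mice carry a point mutation in Myb that weakens the binding of c-Myb to the coactivator p300. c-Myb drives the growth of blood progenitors and, with other factors, the genes of granulocyte proteases. The comparison asks what the oncogene did within 48 hours in cells whose c-Myb has this defect.

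On the 4 AML1-ETO9a arrays 11597 to 12002 of 25697 probes were detected (detection p under 0.05), against 10158 to 11762 on the 4 control arrays, and precision rests on the number of arrays. Booreana control replicate 2 had the lowest number, 10158, and the lowest mean correlation with the other Booreana arrays, 0.849, where the other 7 lay between 0.941 and 0.953. On the first principal component of the 8 arrays, with 54.8% of the variance, it stood at 125 and the others between -27.7 and -1.03. Values without this array are given below for the genes named whose call it decided, and for some whose call held. Of the markers of the labelled cells, Cd34 was detected on all 8 arrays, and Kit, the gene of c-Kit, has no named probe among those tested and was not analysed here.

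Levels are normalized log2 intensities, so that a difference of 1 is a doubling, and a change is the mean of the AML1-ETO9a arrays minus that of the control arrays with its standard error from limma. A probe was called where limma's p-value, adjusted by the Benjamini-Hochberg method over all 12760 tested probes, was under 0.05. AML1-ETO9a changed 210 probes in Booreana cells (1.65% of those tested), 134 higher (1.05%) and 76 lower (0.596%). With 1 probe per gene, the brightest, 177 of 8833 genes were called, 114 higher (1.29%) and 63 lower (0.713%), and the median change over all 8833 was -0.05. Among called genes detected on all 8 arrays and with no overlap of the groups, the largest rise was that of Gask1b, 15.3-fold, and the largest fall that of Prss34, to 0.111 of its control level. On the log2 scale 41 genes rose by more than 2 and 10 fell by more than 2. Of the 177, 23 rises were in genes not detected on any control array and 3 falls in genes not detected on any AML1-ETO9a array. For such genes a lower bound of the fold change is given, against the higher of the gene's own signal and the lowest signal of a detected probe. In 176 of the 177 genes all 4 pairs of arrays with equal replicate numbers moved the same way. In 172 of the 177 the groups did not overlap, which fixes the direction of every pair. The share over all tested genes was not counted, so the 176 are not read as a result about the called genes. Treated as pairs by a replicate block, the comparison called 453 probes (3.55%), 54.3% of them higher against 63.8% without the block. Without scaling between arrays the count was 173, with 86.1% higher and a median change of 0.10 over all probes, against -0.03 with scaling. Without AML1-ETO9a replicate 2 it was 138, and in a fit on the 8 Booreana arrays alone it was 63, where 38 of the 75 called genes among those named below lost their call, Prss34, Mpo, Tph1, Ccl2, Ccl7 and Spink2 included.

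**Figure D1:**
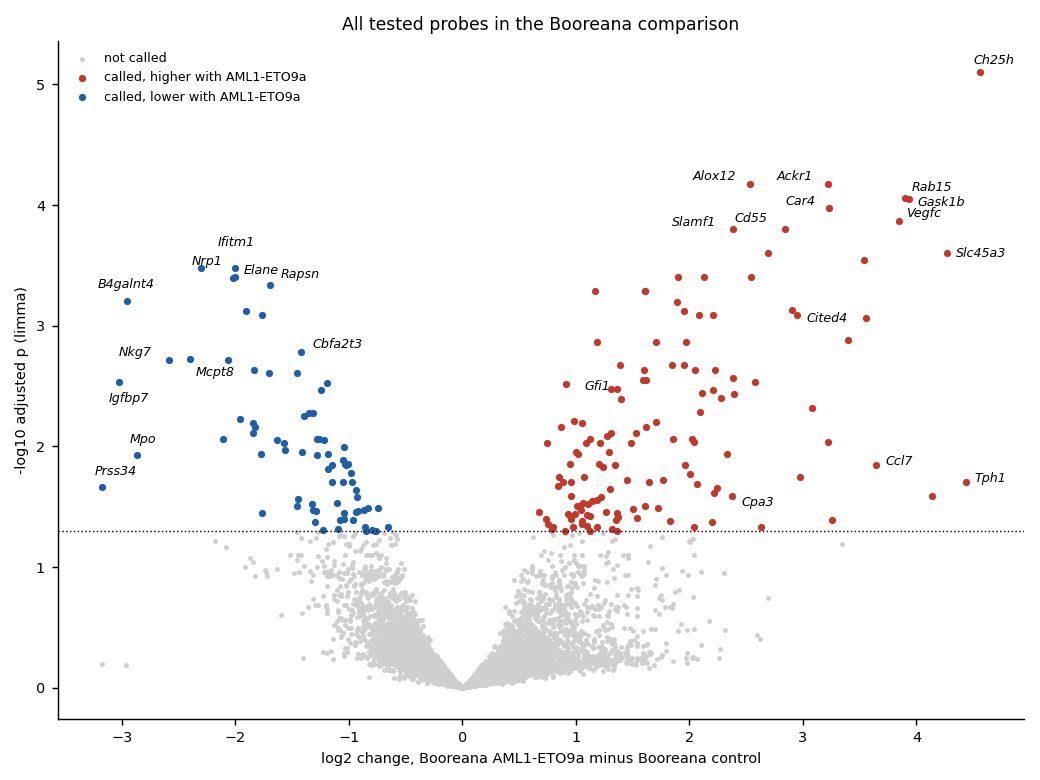
Each point is 1 of 12760 probes, with its log2 change (Booreana AML1-ETO9a minus Booreana control) across and -log10 of limma's adjusted p up the page; the dotted line marks an adjusted p of 0.05. Ch25h and Tph1 lie farthest to the right, and Prss34, Igfbp7, B4galnt4 and Mpo farthest to the left among called genes.

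Of the 25 largest rises and 25 largest falls, promoters that held the RUNX motif are shown for 2 genes of each direction, because this is the sequence that the runt domain of the oncogene reads. Ch25h and Tph1 had the largest rises among genes with a motif, and Prss34 and Mcpt8 are the basophil proteases that fell. Each line gives 250 bases before to 50 bases after the start of the gene, 5′ to 3′ on the strand of the gene, from RefSeq in build GRCm38.p6. Capitals mark RUNX motifs (TGTGGT or TGCGGT, or their reverse complements ACCACA and ACCGCA) and MYB motifs (AACTG or AACGG, or CAGTT and CCGTT). The windows are Ch25h at chr19:34475099-34475398 on the minus strand, Tph1 at chr7:46672488-46672787 on the minus strand, Prss34 at chr17:25298144-25298443 on the plus strand and Mcpt8 at chr14:56085148-56085447 on the minus strand.
Ch25h: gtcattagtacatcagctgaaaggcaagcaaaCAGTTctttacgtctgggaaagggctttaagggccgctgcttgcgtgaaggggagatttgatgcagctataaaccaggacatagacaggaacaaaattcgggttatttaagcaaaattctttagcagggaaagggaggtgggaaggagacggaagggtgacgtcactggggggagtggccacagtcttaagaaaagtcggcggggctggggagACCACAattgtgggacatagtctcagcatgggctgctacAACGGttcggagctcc
Tph1: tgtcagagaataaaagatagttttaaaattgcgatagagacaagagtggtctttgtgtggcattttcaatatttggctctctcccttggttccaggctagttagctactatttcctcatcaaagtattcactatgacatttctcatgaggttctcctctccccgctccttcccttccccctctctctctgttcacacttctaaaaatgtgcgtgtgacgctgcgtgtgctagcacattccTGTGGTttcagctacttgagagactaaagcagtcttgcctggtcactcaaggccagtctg
Prss34: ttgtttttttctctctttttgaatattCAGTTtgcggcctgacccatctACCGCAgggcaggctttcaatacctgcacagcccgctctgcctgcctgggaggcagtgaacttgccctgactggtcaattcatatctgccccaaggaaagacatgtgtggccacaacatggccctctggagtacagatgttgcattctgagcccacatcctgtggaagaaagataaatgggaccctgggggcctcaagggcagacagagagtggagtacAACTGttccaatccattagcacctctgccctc
Mcpt8: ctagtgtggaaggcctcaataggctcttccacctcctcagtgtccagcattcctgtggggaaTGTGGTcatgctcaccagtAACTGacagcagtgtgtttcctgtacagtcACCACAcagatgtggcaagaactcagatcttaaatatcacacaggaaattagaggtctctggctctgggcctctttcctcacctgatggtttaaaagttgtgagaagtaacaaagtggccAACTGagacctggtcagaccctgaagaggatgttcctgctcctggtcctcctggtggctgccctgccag
Ch25h has 1 RUNX match at -5, counted from the start site, and MYB matches at -218 and 35. Tph1 has a RUNX match at -10 and no MYB match in the window. In Prss34 the RUNX match lies at -201 with MYB matches at -223 and 19, and in Mcpt8 RUNX matches lie at -188 and -139 and MYB matches at -169 and -19. A promoter window was found for 7251 of the 8833 genes. RUNX motifs were present in 19.5% of windows of called rises (17 of 87), 34.7% of windows of called falls (17 of 49) and 20.9% of all 7251 (1514). MYB motifs were present in 52.9%, 57.1% and 53.1% of the same windows. These shares are a description of letters in a window and do not show binding.

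Genes of the fusion partners and of the cofactors of ETO and c-Myb came first. Runx1t1, the mouse gene of ETO, was detected on all 4 AML1-ETO9a arrays, at 7.41, 6.52, 6.61 and 6.27, and on 0 control arrays, where its signal was 5.14, 5.05, 5.32 and 4.85. It was at least 1.93-fold higher (adjusted p = 0.00051), and without any 1 AML1-ETO9a array it was detected on too few arrays to be tested. Because it passed the detection filter only through the group where it is high, its adjusted p is no separate support for the rise. In wild-type cells with the same viruses Runx1t1 differed by 0.15 (adjusted p = 0.906). The Booreana change minus the wild-type change was 1.46 and was not called (adjusted p = 0.0829). Whether this probe reads the viral transcript was not tested. Runx1 lay at 9.92, 9.38, 9.55 and 9.76 with AML1-ETO9a and at 9.58, 8.92, 9.21 and 9.13 with the control vector, a difference of 0.44 ± 0.23 that did not pass (adjusted p = 0.468). Cbfb, whose protein partners RUNX1, differed by 0.04 ± 0.26, and by -0.26 without control replicate 2 (adjusted p = 0.968 and 0.759). Cbfa2t3, which encodes ETO2, a corepressor of the ETO family, fell: its levels were 9.72, 9.94, 10.05 and 10.48 with AML1-ETO9a, against 11.70, 11.21, 11.42 and 11.54 in control cells, a change of -1.42 ± 0.21 (adjusted p = 0.00165), and another probe of it fell by 1.04. The groups of Cbfa2t3 do not overlap, and its 4 AML1-ETO9a arrays lie below every control array.

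Cited4, whose protein binds p300 and CBP, rose by 2.95 ± 0.40 (adjusted p = 0.000809). It stood at 7.89, 8.91, 7.95 and 8.92 on the AML1-ETO9a arrays and at 4.90, 6.02, 5.73 and 5.22 on the control arrays, of which 1 detected it. Its relative Cited2, which binds the same coactivators, was at 10.58, 11.26, 10.28 and 10.69 with AML1-ETO9a and at 9.60, 6.30, 9.45 and 9.72 in control cells, where the value of replicate 2 lies far below the rest. The change of Cited2 was 1.93 ± 0.55 with all arrays (adjusted p = 0.108) and 1.10 without that array (adjusted p = 0.0126), so it was called without it. Ep300 itself differed by 0.45 ± 0.44 (adjusted p = 0.708), and by -0.08 without control replicate 2. Myb was dim, at 6.05, 5.77, 6.09 and 5.92 with AML1-ETO9a against 6.11, 7.38, 6.68 and 5.33 in control cells, and its difference of -0.42 ± 0.34 did not pass (adjusted p = 0.647); an expression probe does not read the Booreana mutation. Of 17 tested genes of the ETO family, its corepressors and coactivators, 2 rose, Runx1t1 and Cited4, and 1 fell, Cbfa2t3, and the median change was 0.13. The limit given for Runx1t1 holds for this count too. Over all tested genes 1.29% were called higher and 0.713% lower.

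**Figure D2:**
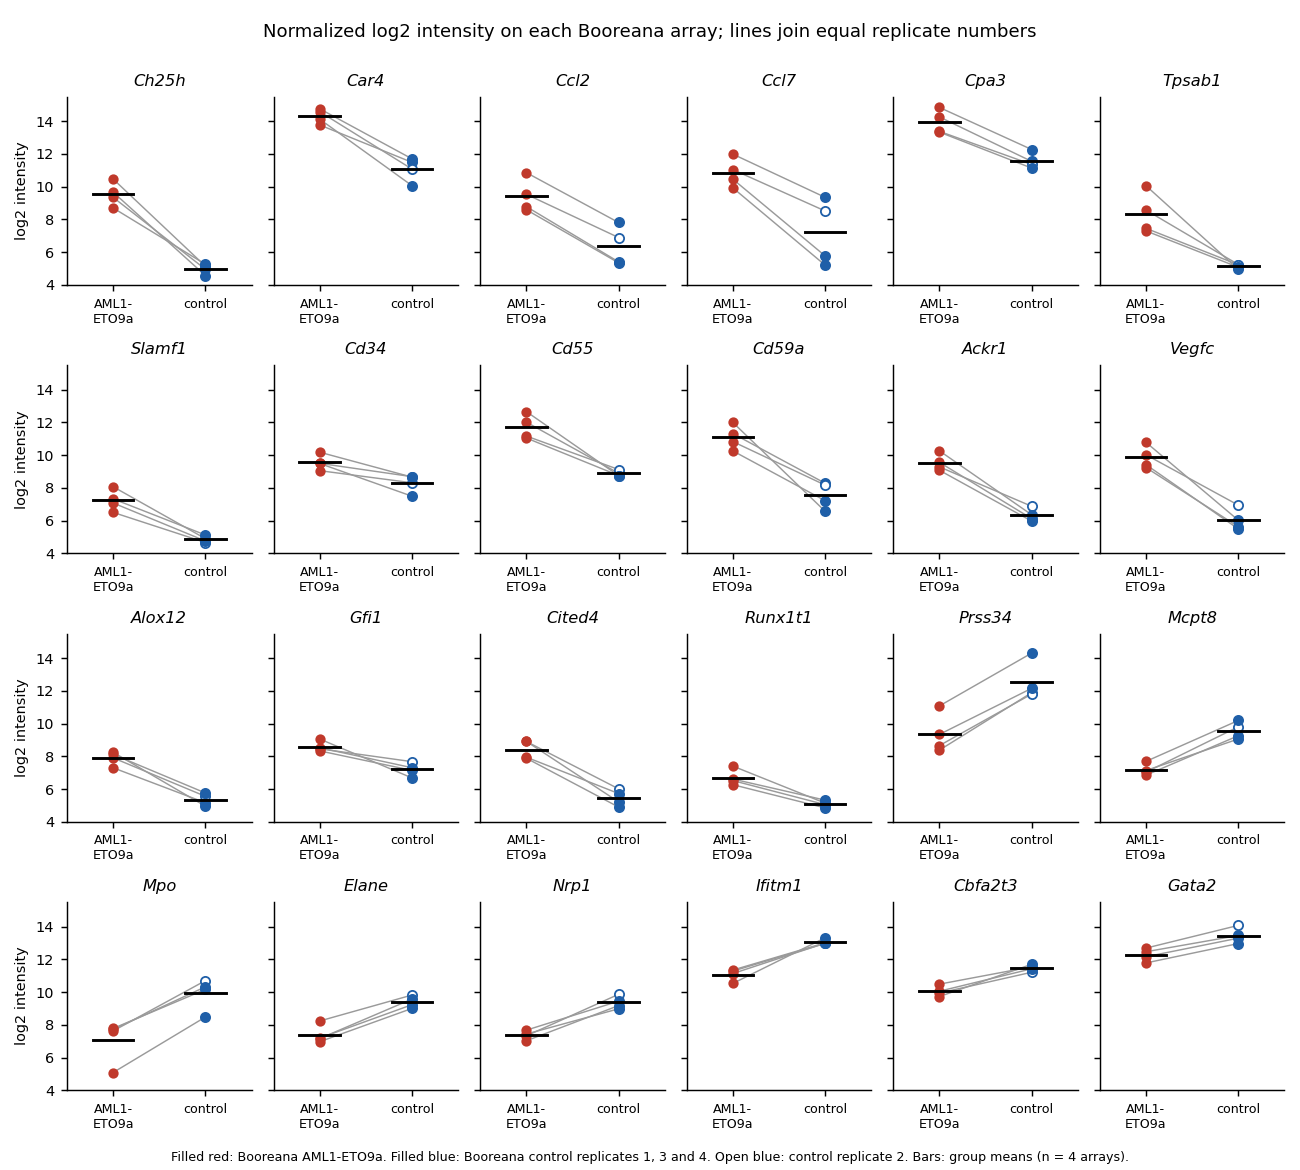
Normalized log2 intensity of 24 genes on the 8 Booreana arrays, AML1-ETO9a on the left of each panel and control on the right. Lines join arrays of equal replicate number, black bars are means of 4 arrays, and the open symbol is control replicate 2; the 2 groups overlap in none of the panels of called genes, and Gata2 is lower in all 4 pairs.

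Several mast cell genes rose, and 2 basophil protease genes fell. Of 13 tested genes of mast cell proteases and mediators 4 rose and 0 fell, with a median change of 0.98, and 11 of the 13 changes were positive. The median level of the list lay between 7.49 and 10.54 on the AML1-ETO9a arrays and between 5.23 and 6.69 on the control arrays. Cpa3, the carboxypeptidase of mast cell granules, stood at 14.26, 13.38, 13.34 and 14.84 with AML1-ETO9a, against 11.54, 11.36, 11.14 and 12.27 in control cells, where it was already bright, a change of 2.38 ± 0.51 (adjusted p = 0.0256); another probe rose by 3.25 and one more gave 2.03, not past the threshold. Tpsab1, a tryptase of the same granules, was detected on 4 AML1-ETO9a arrays, at 8.57, 7.46, 7.30 and 10.06, and on 0 control arrays, and was at least 6.05-fold higher (adjusted p = 0.00913). Tph1, which starts the synthesis of serotonin, lay at 8.63, 9.82, 7.22 and 12.11, against 5.26, 5.09, 4.88 and 4.82 in control cells where no array detected it, at least 12.9-fold higher (adjusted p = 0.0198). Slc45a3, a membrane transporter, was likewise undetected in control cells and lay at 9.86, 8.80, 8.79 and 10.54 with AML1-ETO9a, at least 13.4-fold higher (adjusted p = 0.00025). Replicate 4 is the highest of the AML1-ETO9a arrays for all 4 genes. It is also the one on which 2 members that were not called stand out: the tryptase gene Tpsb2 had 6.27, 7.05, 5.84 and 11.37 on the AML1-ETO9a arrays (adjusted p = 0.181) and the chymase gene Cma1 5.57, 5.02, 5.19 and 9.29 (adjusted p = 0.582). Without AML1-ETO9a replicate 4 the change of Tph1 was 3.54, without AML1-ETO9a replicate 3 it was 5.16, and its call ended without AML1-ETO9a replicate 2 or 4 or control replicate 3 (adjusted p up to 0.0641). The call of Cpa3 ended without AML1-ETO9a replicate 1 or 4 or control replicate 1 or 3 (up to 0.0898). Its change without control replicate 2 was 2.30 (adjusted p = 0.0482). In sorted bulk cells more cells of a type cannot be told apart from more RNA per cell.

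Basophils, relatives of mast cells, are marked by the proteases Prss34 and Mcpt8. Prss34 lay at 8.38, 8.66, 9.34 and 11.08 on the AML1-ETO9a arrays, against 11.89, 11.81, 12.15 and 14.31 on the control arrays, and fell by 3.18 ± 0.67 (adjusted p = 0.0219). Mcpt8 lay at 7.13, 7.03, 6.85 and 7.69, against 9.06, 9.80, 9.26 and 10.19, and its change was -2.40 ± 0.36 (adjusted p = 0.0019). In both genes every AML1-ETO9a array lies below every control array, and the pair of replicate number 4 is the brightest on both sides. The other 3 tested basophil genes showed no call and positive differences, so that the median of the 5 was 0.04: Cd200r3 differed by 0.23 ± 0.46, and the cytokine genes Il4 and Il13 by 0.04 ± 0.41 and 0.59 ± 0.25. The median level of the 5 lay between 8.38 and 11.08 with AML1-ETO9a and between 9.51 and 10.79 in control cells. Without AML1-ETO9a replicate 1, 2 or 3 or control replicate 4 the call of Prss34 ended (adjusted p up to 0.0809), with a change of -2.59 without that control array.

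Eosinophil genes were lower on average: of 7 tested genes 6 had negative changes, with a median of -1.63, and 1 fell. The one that fell, Alox15, a lipoxygenase of eosinophils and macrophages, lay at 4.84, 5.83, 5.38 and 5.40 with AML1-ETO9a and at 6.98, 6.90, 6.15 and 7.94 in control cells (-1.63 ± 0.30, adjusted p = 0.00893), detected on 1 and 4 arrays. The granule genes Epx, Prg3 and Ear6 differed by -1.92 ± 0.53, -1.87 ± 0.50 and -1.82 ± 0.54, not past the threshold without pairs; with the replicate block Epx (adjusted p = 0.0422) and Ear6 (adjusted p = 0.0437) fell as well. Epx passed without control replicate 4 too, and leaving out wild-type AML1-ETO9a replicate 4 let both Epx and Prg3 pass. The median level of the eosinophil list was 5.51 to 6.78 with AML1-ETO9a and 7.73 to 9.27 in control cells, with no overlap of the groups.

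In neutrophil primary granules, which hold the enzymes that promyelocytes make, Mpo and Elane fell and an inhibitor of elastase rose. Mpo, myeloperoxidase, lay at 7.78, 7.63, 7.71 and 5.09 with AML1-ETO9a and at 10.16, 10.70, 10.32 and 8.48 in control cells, a change of -2.86 ± 0.55 (adjusted p = 0.0118). The pair of replicate number 4 is the lowest on both sides, and without AML1-ETO9a replicate 4 the change was -2.22. 2 other probes of Mpo gave -0.76 and -1.74, not past the threshold. Elane, neutrophil elastase, lay at 7.19, 8.23, 7.16 and 6.97, against 9.23, 9.82, 9.57 and 9.0, with a change of -2.02 ± 0.25 (adjusted p = 0.000402). Serpinb1a, which encodes an inhibitor of elastase, cathepsin G and proteinase 3, rose to 13.61, 13.03, 13.02 and 13.07, against 11.71, 11.75, 11.66 and 12.06 in control cells (1.39 ± 0.21, adjusted p = 0.00211). The genes of the other 2 proteases, Prtn3 and Ctsg, differed by -0.50 ± 0.23 and -0.44 ± 0.24 and did not pass (adjusted p = 0.4 and 0.509), and Ms4a3, a marker of granulocyte and monocyte progenitors, differed by -0.94 ± 0.32 (adjusted p = 0.191). In all, 1 of 10 tested genes of the list rose and 2 fell, with a median of -0.10. Lyz2, lysozyme, shows what control replicate 2 does to a bright gene: the levels were 13.62, 13.86, 13.76 and 15.05 with AML1-ETO9a, against 13, 5.86, 13.11 and 13.82 in control cells, a difference of 2.62 with that array and 0.76 without it.

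Late granule genes gave no call in 18 tested (median 0.25), among them Retnlg (1.75 ± 0.57, adjusted p = 0.17), Mmp8 (1.29 ± 0.48, adjusted p = 0.253) and Cd177 (1.22 ± 0.67, adjusted p = 0.505); Retnlg passed without wild-type AML1-ETO9a replicate 4. The regulators of these programmes, Cebpa and Cebpe, lay at 5.44, 6.05, 6.15 and 5.94 and at 11.50, 12.34, 12.58 and 12.16 with AML1-ETO9a, against 7.83, 5.06, 7.77 and 7.29 and 12.72, 12.68, 12.76 and 12.68 in control cells. Cebpa differed by -1.10 ± 0.46 (adjusted p = 0.334), and fell by 1.74 (adjusted p = 0.00114) without control replicate 2, the lowest control array. Cebpe differed by -0.57 ± 0.22 (adjusted p = 0.269). Among 12 tested genes known from other work as repressed by AML1-ETO, Mpo and Elane were the 2 that fell (median -0.50), and Cebpa was a further one without control replicate 2. Among 3 known as induced 0 passed with all arrays, and 1, Bcl2, fell without control replicate 2 (-1.18, adjusted p = 0.0436). Of 11 genes tied to activation by c-Myb 2 rose, Gfi1 and Cd34, and 2 fell, again Mpo and Elane, with a median of -0.14. Without control replicate 2 this count was 1 higher and 3 lower, with a median of -0.43, as Cd34 lost its call and Bcl2 gained one. These lists share genes and are not separate results.

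Monocyte and macrophage genes had a median change of 0.39, with 11 of 13 positive and 1 called. Adgre1, the F4/80 antigen of macrophages, rose by 0.85 ± 0.17, with 12.80, 12.57, 12.63 and 12.81 on the AML1-ETO9a arrays and 11.96, 11.74, 12.04 and 11.65 on the control arrays (adjusted p = 0.0181). Its call ended without AML1-ETO9a replicate 1 or 4 (up to 0.0617), and other probes of it gave 1.54 and 0.96, not past the threshold. Mrc1, the mannose receptor, shows how far the pairs matter: 8.76, 10.18, 10.14 and 11.66 with AML1-ETO9a and 6.82, 8.09, 8.31 and 10.03 in control cells overlap as groups (1.88 ± 0.60, adjusted p = 0.162), yet the 4 paired differences are 1.94, 2.09, 1.84 and 1.64, and with the replicate block it rose (adjusted p = 0.000488). Lgmn, an asparaginyl protease of lysosomes, rose with the block as well (1.85, adjusted p = 0.0326), and Mrc1 passed without control replicate 4. The median level of the list was 8.76 to 10.03 with AML1-ETO9a and 7.93 to 9.38 in control cells.

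Megakaryocyte and platelet genes gave 1 rise in 15 tested, with a median of 0.43. Treml1, a receptor stored in platelet granules, lay at 9.42, 9.06, 8.73 and 11.11 with AML1-ETO9a and at 5.40, 7.31, 6.13 and 7.55 in control cells, and rose by 2.98 ± 0.61 (adjusted p = 0.018); the call ended without AML1-ETO9a replicate 4 or control replicate 1 or 3 (up to 0.0618). Ppbp, a platelet chemokine, had the largest change of the list, 3.35 ± 0.85, and did not pass (adjusted p = 0.0647); its levels were 11.76, 10.38, 10.18 and 11.48, against 7.74, 5.07, 7.73 and 9.88, and another probe of it rose by 2.63. With the replicate block Ppbp (adjusted p = 0.0437) and Vwf (1.34, adjusted p = 0.0191) rose and Gp9, part of the von Willebrand receptor, fell (-1.32, adjusted p = 0.0402). Without control replicate 4 or wild-type control replicate 4, Ppbp passed without the block. The erythroid list gave 0 calls in 8 tested genes: Car2, carbonic anhydrase 2, differed by 2.03 ± 0.67 and by 1.24 without control replicate 2, and Klf1 by -0.37 ± 0.43. Hbb-y, a globin gene outside that list and named after its values were seen, rose by 1.97 (adjusted p = 0.00136). Without control replicate 2 the rise of Hbb-y was 2.01 (adjusted p = 0.00217). Lymphoid markers were mostly below detection: of 12 B cell genes on the array 2 were tested and 0 called, and of 14 T and NK cell genes 3 were tested. Nkg7, a membrane protein of cytotoxic granules, was the 1 that fell, with 7.41, 7.54, 7.59 and 7.85 on the AML1-ETO9a arrays and 9.34, 10.57, 9.76 and 11.04 on the control arrays (-2.58 ± 0.38, adjusted p = 0.00192), while Klrd1 and Prf1 differed by -1.22 ± 0.35 and -0.66 ± 0.57. The 9 tested genes of MHC class II and dendritic cells gave 0 calls, with a median of -0.37. Of 4 tested stromal and endothelial genes Sparc rose, at least 2.47-fold from no detection on control arrays (adjusted p = 0.0143, up to 0.0554 without AML1-ETO9a replicate 2 or control replicate 3), and Igfbp7 fell.

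Stem and progenitor genes gave 4 rises and 0 falls in 17 tested, with a median of 0.24. Over all tested genes 1.29% were called higher and 0.713% lower. Slamf1, the CD150 receptor that marks long-term stem cells, was detected on 4 AML1-ETO9a arrays and 0 control arrays. Its levels were 7.33, 6.50, 7.08 and 8.07 with AML1-ETO9a and 5.12, 4.66, 4.76 and 4.90 in control cells, so that it was at least 2.81-fold higher (adjusted p = 0.000159). Without any 1 AML1-ETO9a array it was not tested. Slamf1 passed the detection filter only through the 4 AML1-ETO9a arrays, so its adjusted p is no separate support for the rise. Spink2, a serine protease inhibitor, lay at 8.94, 8.61, 8.45 and 10.71, against 5.47, 7.20, 4.72 and 5.73, and rose by 3.40 ± 0.48 (adjusted p = 0.0013). Its change without control replicate 2 was 3.86 (adjusted p = 0.000144). Esam, an adhesion molecule of endothelium and stem cells, lay at 9.65, 9.24, 8.79 and 9.52, against 6.83, 8.29, 7.05 and 7.62, and rose by 1.85 ± 0.34 (adjusted p = 0.0086). Cd34 rose by 1.27 ± 0.29 (adjusted p = 0.0349), with 10.18, 9.05, 9.50 and 9.49 on the AML1-ETO9a arrays and 8.66, 8.31, 8.69 and 7.49 on the control arrays; without control replicate 2 it stood at 1.26 (adjusted p = 0.0533). Its call ended without AML1-ETO9a replicate 1, 3 or 4, control replicate 2 or 4 or else replicate 2 or 3 of wild-type control (up to 0.113). Tek, the angiopoietin receptor, differed by 1.21 ± 0.32 (adjusted p = 0.0791) and Hoxa7 by -1.27 ± 0.34 (adjusted p = 0.0815). With the replicate block Tek rose (adjusted p = 0.0213) and Hoxa7 fell (adjusted p = 0.0303), and each passed without some single arrays as well, Tek without wild-type AML1-ETO9a replicate 1 and Hoxa7 when control replicate 4 or, separately, wild-type AML1-ETO9a replicate 4 was left out. Meis1 and Hoxa9, partners in stem cell self-renewal, differed by 0.60 ± 0.26 and -0.26 ± 0.31.

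Of 34 tested hematopoietic transcription factors 2 rose and 0 fell. Gfi1, a repressor needed by stem cells and neutrophils, rose to 9.06, 8.46, 8.52 and 8.33 with AML1-ETO9a, against 6.68, 7.67, 7.31 and 7.14 in control cells, a change of 1.39 ± 0.23 (adjusted p = 0.00406). Id3, which blocks basic helix-loop-helix factors, rose by 2.27 ± 0.38 (adjusted p = 0.00399), with 7.36, 6.96, 8.10 and 7.59 on the AML1-ETO9a arrays and 4.62, 6.32, 5.25 and 4.73 on the control arrays, of which 1 detected it. Its relative Id1 differed by -0.11 ± 0.17. Gata2, a factor of stem cells and mast cells, lay at 12.15, 12.68, 11.78 and 12.46, against 13.29, 14.07, 12.96 and 13.45, without overlap; its difference of -1.17 ± 0.34 was not called without pairs (adjusted p = 0.117) and was called with the replicate block (adjusted p = 0.00444). Spi1 differed by -0.26 ± 0.39, Gata1 by 0.01 ± 0.39 and Bcl11a by -0.99 ± 0.38 (adjusted p = 0.814, 0.996 and 0.269). Myc lay at 8.39, 8.07, 8.14 and 8.38 with AML1-ETO9a and at 8.80, 4.88, 8.56 and 8.70 in control cells, so that its difference of 0.51 turned to -0.43 without control replicate 2 (adjusted p = 0.766 and 0.542). Outside these lists stands Spic, an ETS factor of iron-recycling macrophages, which rose by 2.69 ± 0.30 (adjusted p = 0.00025), with 8.40, 8.19, 8.30 and 7.34 on the AML1-ETO9a arrays and 5.19, 5.0, 5.27 and 6.02 on the control arrays.

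Among the 25 largest rises were 3 genes of surface proteins that act on complement or bind chemokines; no list of such genes was counted. Cd55, which speeds the decay of complement convertases, lay at 12.02, 11.17, 11.05 and 12.66 with AML1-ETO9a, against 8.90, 9.12, 8.76 and 8.75 in control cells, and rose by 2.84 ± 0.31 (adjusted p = 0.000159). Cd59a, which blocks the membrane attack complex, lay at 11.32, 10.83, 10.26 and 12, against 8.28, 8.17, 7.22 and 6.57, and rose by 3.54 ± 0.41 (adjusted p = 0.000285). Ackr1, the Duffy antigen, which binds chemokines without signalling, lay at 9.56, 9.29, 9.08 and 10.27, against 6.12, 6.88, 5.97 and 6.36, and rose by 3.22 ± 0.30 (adjusted p = 6.68e-05). For the 3 genes every AML1-ETO9a array is above every control array by a wide margin, and AML1-ETO9a replicate 4 is the highest.

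Of 14 tested chemokine genes 5 rose and 0 fell, with a median of 0.54. The median level of the list lay between 8.44 and 10.20 with AML1-ETO9a and between 5.91 and 8.83 in control cells. Ccl2, which attracts monocytes, lay at 8.79, 9.54, 8.60 and 10.86 with AML1-ETO9a and at 5.41, 6.89, 5.35 and 7.81 in control cells, and rose by 3.08 ± 0.52 (adjusted p = 0.00479). Ccl7 lay at 9.93, 11.04, 10.46 and 11.99, against 5.21, 8.52, 5.77 and 9.35, and rose by 3.65 ± 0.72 (adjusted p = 0.0143). In both genes replicates 2 and 4 are the higher ones in each group, and the paired differences are 3.38, 2.64, 3.25 and 3.05 for Ccl2 and 4.72, 2.53, 4.69 and 2.64 for Ccl7. Ccl7 lost its call without AML1-ETO9a replicate 4 or control replicate 3 (up to 0.0566) and stood at 2.98 without control replicate 1 and 4.36 without control replicate 4. Ccl12, of the same gene cluster, rose by 2.20 ± 0.51 (adjusted p = 0.0422), and another probe gave 1.54, not past the threshold. That call ended without AML1-ETO9a replicate 2, 3 or 4, control replicate 1 or 3, replicate 3 of wild-type AML1-ETO9a or else any wild-type control array (up to 0.142). The change of Ccl12 without control replicate 2 was 2.33 (adjusted p = 0.0425). The neutrophil chemokines Cxcl2 and Cxcl1 were undetected on every control array: Cxcl2 lay at 8.37, 7.84, 7.47 and 6.47 with AML1-ETO9a and was at least 3.45-fold higher (adjusted p = 0.0027). Cxcl1 lay at 7.14, 6.28, 5.51 and 5.98, detected on 3 arrays, at least 1.39-fold higher (adjusted p = 0.0143). Ccl3 and Ccl24 did not pass (-0.89 ± 0.56 and -1.41 ± 0.88), and the interferon-driven Cxcl10 differed by 0.96 ± 0.83; with the replicate block Ccl24 fell (adjusted p = 0.026).

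Genes of signalling gave few calls. Of 21 NF-kB targets and cytokines Icam1, an adhesion molecule, rose by 1.13 ± 0.26 (adjusted p = 0.0381); its levels were 9.95, 10.69, 10.07 and 10.69, against 8.85, 9.27, 9.11 and 9.66, and the call ended without AML1-ETO9a replicate 2, 3 or 4, control replicate 1, 2 or 3, replicate 2 of wild-type AML1-ETO9a or else replicate 1 or 2 of wild-type control (up to 0.123). Without control replicate 2 Icam1 stood at 1.13 (adjusted p = 0.0567). Il1b and Il1a differed by 0.85 ± 0.51 and 1.76 ± 0.59, and Il1a passed with the block (adjusted p = 0.0367) and when wild-type AML1-ETO9a replicate 4 was left out. Dusp2, a phosphatase of MAP kinases, was the 1 of 18 immediate early genes called (1.61 ± 0.36, adjusted p = 0.0309), with 11.04, 10.56, 9.82 and 9.36 on the AML1-ETO9a arrays and 9.08, 8.27, 8.72 and 8.28 on the control arrays; the call ended without AML1-ETO9a replicate 1 or 2 or control replicate 2, 3 or 4 (up to 0.102). Without control replicate 2 Dusp2 stood at 1.49 (adjusted p = 0.0663). Fos differed by 1.46 ± 0.47 (adjusted p = 0.17) and Egr2 by 1.01 ± 0.35 (adjusted p = 0.209), and both passed with the block (adjusted p = 0.00591 and 0.0209), as did Dusp1 (adjusted p = 0.046). Of 18 interferon response genes 0 rose and Ifitm1 fell. Ifitm1 lay at 11.13, 11.28, 10.52 and 11.34 with AML1-ETO9a, against 12.98, 12.97, 13.31 and 13.01 in control cells (-2.0 ± 0.24, adjusted p = 0.000331), while 2 other probes of it gave -2.08 and -1.15, not past the threshold. Ifitm2 differed by -0.74 ± 0.18 (adjusted p = 0.0592), and it passed without control replicate 2 (-0.94, adjusted p = 0.00467) and with the block (adjusted p = 0.0392). Isg15 varied more within each group than between them, with 10.37, 10.42, 8.52 and 13.35 on the AML1-ETO9a arrays and 8.02, 9.80, 8.09 and 11.79 on the control arrays. Of 27 cytokine receptors on the list 0 passed without pairs and 2 rose and 1 fell with the block. Lifr, a cytokine receptor gene outside the list and named after its values were seen, rose by 1.09 (adjusted p = 0.00938). On the list Il13ra1 and Il2ra differed by 1.99 ± 0.58 and 1.32 ± 0.33. Il13ra1 passed with the block (adjusted p = 0.00444), and Il2ra passed when either control replicate 4 or replicate 2 of wild-type AML1-ETO9a was left out.

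Lipid enzymes held the strongest single change. Ch25h, which makes 25-hydroxycholesterol from cholesterol, lay at 9.66, 10.47, 9.35 and 8.70 on the AML1-ETO9a arrays and at 4.57, 5.14, 4.96 and 5.26 on the control arrays, none of which detected it. It was at least 13.9-fold higher (adjusted p = 7.81e-06), and leaving out any 1 of the 16 arrays kept its adjusted p at or below 9.72e-05. Of 17 tested genes of cholesterol synthesis and uptake 14 had negative changes, with a median of -0.38, and 1 was called, Hsd17b7 (-0.76 ± 0.18, adjusted p = 0.0499). That call ended without any AML1-ETO9a array, any control array, replicate 1, 2 or 3 of wild-type AML1-ETO9a or else replicate 1, 2 or 3 of wild-type control (up to 0.148). Without control replicate 2 Hsd17b7 stood at -0.65 (adjusted p = 0.106). Idi1 and Lss, enzymes of the isoprenoid and lanosterol steps, differed by -1.07 ± 0.33 and -0.99 ± 0.25, and Lss passed with the block (adjusted p = 0.0084) and without wild-type control replicate 1.

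The lipoxygenases, which oxidize arachidonic acid, moved apart. Alox12, the platelet-type 12-lipoxygenase, rose by 2.54 ± 0.24 (adjusted p = 6.68e-05), with 8.25, 7.91, 7.30 and 8.12 on the AML1-ETO9a arrays and 4.95, 5.56, 5.16 and 5.76 on the control arrays. Alox5, which starts leukotriene synthesis, fell to 9.97, 9.76, 9.86 and 10.75, against 11.34, 11.55, 11.08 and 11.78 in control cells (-1.35 ± 0.23, adjusted p = 0.0053), and Alox15 fell as given above. Lta4h, the next enzyme of leukotriene synthesis, differed by -0.90 ± 0.28 (adjusted p = 0.142); it passed without control replicate 2 (-1.09, adjusted p = 0.0436) and with the block (adjusted p = 0.0256). The other tested members of the 12 eicosanoid genes included Cysltr1 (0.98 ± 0.57) and Ptgir (0.61 ± 0.18), neither past the threshold.

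Growth factors and adhesion proteins came next. Vegfc, the growth factor of lymphatic vessels, lay at 10.79, 10.02, 9.42 and 9.24 with AML1-ETO9a and at 6.03, 6.95, 5.50 and 5.63 in control cells, of which 2 arrays detected it, and rose by 3.84 ± 0.40 (adjusted p = 0.000135). Nrp1, a coreceptor for VEGF and semaphorins, moved the other way, with 7.43, 7.32, 7.67 and 7.02, against 8.98, 9.86, 9.44 and 9.17, a change of -2.0 ± 0.24 (adjusted p = 0.000397), and another probe of it fell by 2.10. Flt1, a VEGF receptor, differed by 0.95 ± 0.32 (adjusted p = 0.199). Of 21 tested integrins, selectins and adhesion molecules 3 rose and 0 fell: Amigo2 (3.56 ± 0.49, adjusted p = 0.000859), Flrt3 (2.90 ± 0.39, adjusted p = 0.000744) and Pdpn (2.04 ± 0.38, adjusted p = 0.00913). Amigo2, a leucine-rich repeat adhesion protein, lay at 10.25, 9.28, 9.79 and 11.39, against 6.02, 6.68, 5.70 and 8.08. Flrt3, which guides migrating cells, lay at 9.61, 8.88, 9.47 and 9.28, against 5.72, 6.80, 5.46 and 7.65. Pdpn, podoplanin, lay at 9.39, 9.93, 8.65 and 10.14, against 7.18, 8.67, 6.76 and 7.35, so that its highest control array, replicate 2, passes the lowest AML1-ETO9a array. Pecam1 differed by 1.83 ± 0.64, a value that control replicate 2 sets in part, since without it the difference was 0.86 (adjusted p = 0.213 and 0.1). In the WNT and TGF-beta list Fzd7, a WNT receptor, rose by 1.01 ± 0.22 (adjusted p = 0.0309, lost without AML1-ETO9a replicate 2, 3 or 4 or control replicate 1 or 3, up to 0.103) and Smad6, an inhibitor of BMP signalling, by 1.27 ± 0.23 (adjusted p = 0.00813; another probe gave 0.70, not past the threshold).

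Other genes among the 25 largest rises have roles in traffic, signalling and acid balance. Car4, a membrane carbonic anhydrase, rose to 13.77, 14.58, 14.12 and 14.76, against 11.49, 11.08, 10.06 and 11.70 in control cells (3.23 ± 0.33, adjusted p = 0.000106), and its control values are the brightest among the genes that rose by over 3. Gask1b, a protein of the Golgi, lay at 11.21, 9.82, 10.06 and 11.60, against 6.33, 6.96, 6.82 and 6.85, and rose by 3.93 ± 0.39 (adjusted p = 8.9e-05). Rab15, a small GTPase of endosomes, lay at 9.65, 10.41, 10.06 and 10.76, against 5.65, 7.17, 5.42 and 7.07, and rose by 3.89 ± 0.38 (adjusted p = 8.73e-05). Rasl11a, a Ras-like small GTPase, rose by 2.40 ± 0.39 (adjusted p = 0.00364). Serpina3b, a serine protease inhibitor, lay at 7.69, 7.74, 7.62 and 8.68, was undetected on every control array and was at least 4.53-fold higher (adjusted p = 0.000397). Outside the 25 largest, Gstt1, a glutathione transferase, was the 1 of 21 genes of its list that rose (2.21 ± 0.47, adjusted p = 0.0244). Control replicate 2 was the highest control array for it, at 8.45, and without that array the change was 2.76 (adjusted p = 0.000496). Its call ended without any AML1-ETO9a array or control replicate 1, 3 or 4 (up to 0.0804). On that list 15 changes were positive and 6 negative, from -1.84 to 2.21, and with the replicate block 2 genes rose and 1 fell. Some glutathione enzymes outside that list rose too. They were named after their values were seen and do not extend the count of the list. These were Gstm2 (2.21, adjusted p = 0.000809), Gpx7 (1.31, adjusted p = 0.0078) and Gstt3 (0.91, adjusted p = 0.04997). The call of Gstt3 ended with the replicate block (adjusted p = 0.0525).

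Other falls among the 25 largest were in genes of secreted, membrane and muscle proteins. Igfbp7, which binds insulin-like growth factors, lay at 5.52, 5.32, 5.84 and 6.68 with AML1-ETO9a, against 8.08, 8.35, 8.71 and 10.31 in control cells, a change of -3.02 ± 0.48 (adjusted p = 0.00294). B4galnt4, which adds N-acetylgalactosamine to glycans, was detected on 0 AML1-ETO9a arrays, at 5.14, 5.04, 4.83 and 5.05, and on 4 control arrays, at 7.50, 8.61, 7.07 and 8.71, and was at least 5.15-fold lower (adjusted p = 0.00062). Rnase12, of the ribonuclease A family, lay at 7.21, 6.81, 7.64 and 7.44, against 9.17, 9.40, 9.70 and 10.01, and fell by 2.30 ± 0.27 (adjusted p = 0.000331). Bace1, the beta-secretase, changed by -2.07 ± 0.31 (adjusted p = 0.00192), Hsd17b1, which makes estradiol, by -1.95 ± 0.34 (adjusted p = 0.00597) and Serpinf1, a secreted serpin, by -1.91 ± 0.25 (adjusted p = 0.00076). Pcolce2, which aids the cutting of procollagen, changed by -1.85 ± 0.33 (adjusted p = 0.00776), and another probe of it gave -0.65, not past the threshold. Rapsn, which clusters acetylcholine receptors, lay at 6.87, 7.05, 7.03 and 7.19, against 8.53, 8.89, 8.61 and 8.88, with the narrowest spread of the group; it fell by 1.69 ± 0.21 (adjusted p = 0.000461), and 1 of 2 other probes fell as well, by 1.45, while the other gave -1.28. Spns3, Prr7, Bex6, Diras2, Gpr34 and Paqr9 fell too, by 1.70 to 1.84. Their changes without control replicate 2 lay between -2.04 (Gpr34) and -1.49 (Diras2). The muscle genes Csrp3 and Myl4 and the lipid-binding Cpne2 fell by 1.77, 1.45 and 1.46. The call of Csrp3 ended without AML1-ETO9a replicate 1, 2 or 3, control replicate 1, 2 or 4 or else replicate 2 of wild-type control (up to 0.109), that of Myl4 without any AML1-ETO9a array or control replicate 3 (up to 0.0875) and that of Cpne2 without AML1-ETO9a replicate 1, 2 or 3 or any control array (up to 0.103). Without control replicate 2 Csrp3 and Cpne2 stood at -1.53 and -1.32 (adjusted p = 0.0863 and 0.0676). Myl4 and Hsd17b1 kept their calls without it, at -1.10 and -1.64 (adjusted p = 0.0232 and 0.00754).

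Several large gene groups showed no call without pairs. In 19 tested S phase genes, 13 of G2 and mitosis and 21 of DNA repair 0 passed, with medians of -0.22, -0.11 and -0.24, and of -0.25, -0.15 and -0.11 without control replicate 2. The same held for 19 glycolytic enzymes (median 0.16), 20 genes of oxidative phosphorylation (-0.08), 15 MYC targets of ribosome biogenesis (-0.26), 19 genes of the unfolded protein and amino acid stress responses (0.15), 12 feedback inhibitors of the SOCS, Sprouty and dual-specificity families (0.25), 8 genes of cholesterol efflux (0.18), 14 of the BCL2 family and caspases (0.25), a list without Bcl2 itself, and 16 matrix proteins and their enzymes (0.43). Without control replicate 2 the medians of the MYC targets, the stress response genes, the feedback inhibitors and the BCL2 family were -0.11, 0.06, 0.14 and 0.15. With the replicate block 1 glycolytic enzyme, the aldolase Aldoc (0.93, adjusted p = 0.0246), 1 caspase, Casp4 (0.76, adjusted p = 0.0331), and 2 matrix proteases given below rose. Several of the largest differences among cell cycle and metabolic genes depended on control replicate 2. Mcm3, a replication helicase subunit, lay at 10.21, 9.79, 10.27 and 9.76 with AML1-ETO9a, against 10.90, 4.99, 10.93 and 10.34 in control cells, a difference of 0.72 with that array and -0.71 without it. Likewise Cdca8, of the mitotic passenger complex, was at 1.11 and -0.19, Pfkp, a phosphofructokinase, at 1.62 and -0.07, and Hk1, a hexokinase, at 1.59 and 0.54, none of them called either way. Gadd45g, a stress sensor, was the 1 called of 16 p53 targets and cyclin-dependent kinase inhibitors (1.05 ± 0.23, adjusted p = 0.0336); its call ended without any AML1-ETO9a array or control replicate 1, 3 or 4 (up to 0.109) and with the block (adjusted p = 0.0532), and another probe gave 1.99, not past the threshold. Cdkn1a, the p21 inhibitor, differed by 0.42 ± 0.19 (adjusted p = 0.389). Bcl2 lay at 6.95, 6.34, 6.95 and 7.54, against 8.34, 6.43, 8.01 and 8.06, and differed by -0.77 ± 0.37 (adjusted p = 0.423); it passed without control replicate 2 as given above, and 1 other probe fell by 1.56 with all arrays. The matrix proteases Mmp12 and Mmp13 differed by 1.48 ± 0.61 and 2.17 ± 0.85, with values on the AML1-ETO9a arrays of 9.91, 11.26, 9.28 and 12.55 and of 9.07, 9.64, 8.29 and 11.10. Both were higher in all 4 pairs and rose with the block (adjusted p = 0.00354 and 0.0184); Mmp13 also passed without control replicate 4.

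**Figure D3:**
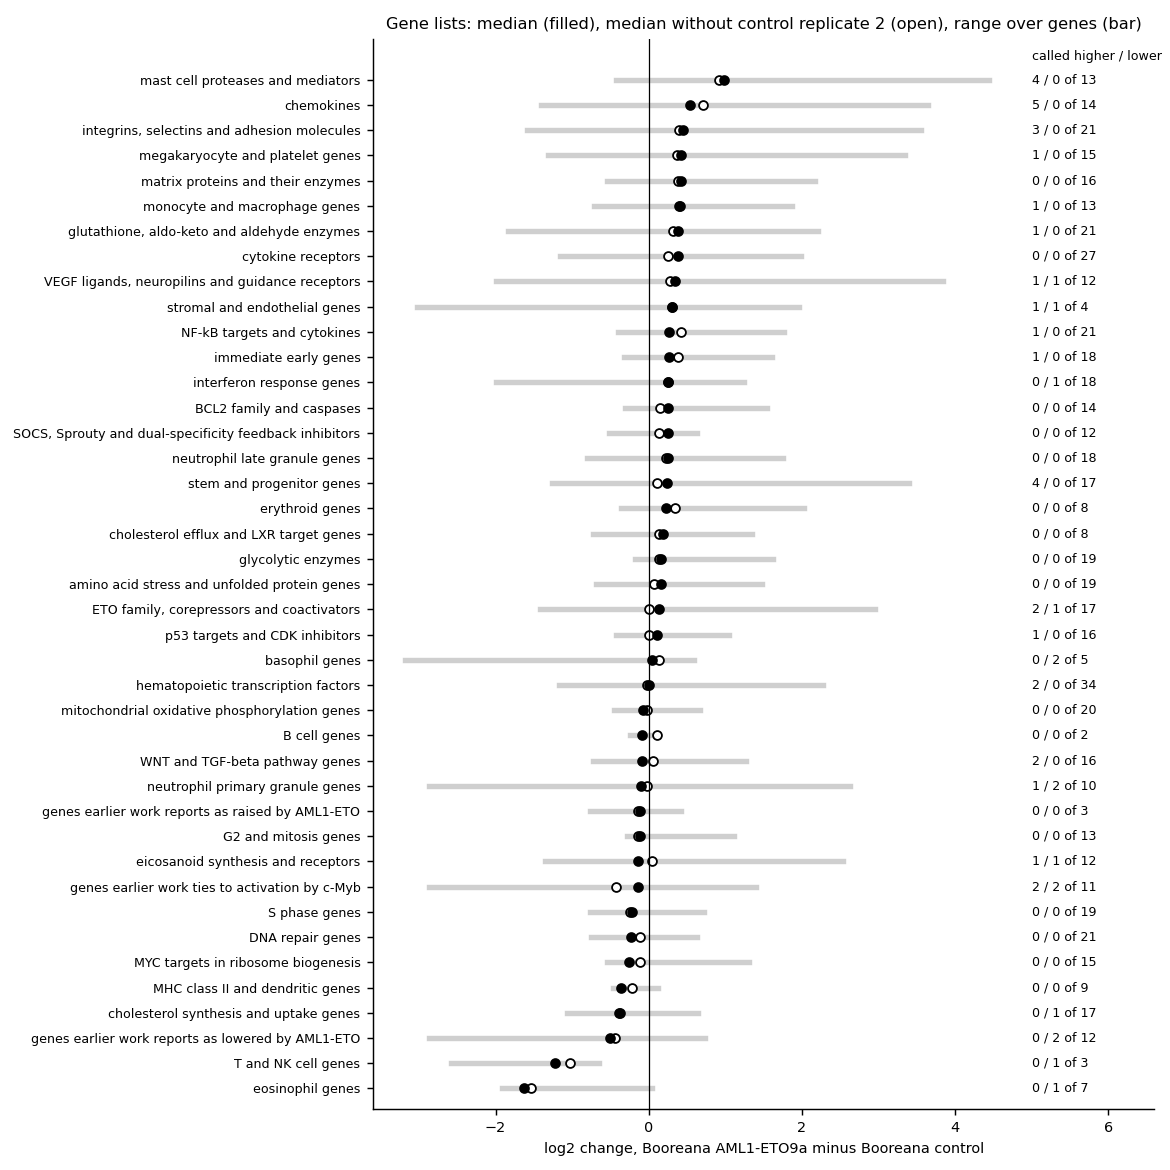
Each row is 1 of 41 gene lists. The filled symbol is the median log2 change of its tested genes (Booreana AML1-ETO9a minus Booreana control), the open symbol the median without control replicate 2, and the bar the range over genes; the numbers at the right count genes called higher and lower. Mast cell genes have the highest median, 0.98, and eosinophil genes the lowest, -1.63.

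Leaving out control replicate 2 changed the list of calls more than its length. Without it 227 of 12650 probes were called (1.79%), of which 168 were also called with it. By gene, 146 calls held both ways, 31 (15 rises and 16 falls) held only with that array and 48 (29 rises and 19 falls) only without it. Among those called without it and not with all arrays were Phlda1, a cytoplasmic protein induced by growth factors (2.03 with the array and 2.49 without it, adjusted p = 0.0587 and 0.00665), Stfa2, a cystatin of neutrophils (1.69 and 2.17), Ddah2 (1.54 and 2.02), the chemokine receptor gene Cxcr1 (1.65 and 1.98) and Clec10a, a lectin of macrophages (1.27 and 1.55). For these the value of control replicate 2 is the highest of the control arrays. Falls of this kind, for which that array is the lowest control array, included Klrb1f, a lectin-like receptor (-1.73 and -2.30, adjusted p = 0.11 and 0.00276), Cebpa, Padi2 (-0.98 and -1.55) and Igf1r, the receptor of insulin-like growth factor 1. Igf1r lay at 8.22, 8.75, 8.60 and 8.81 with AML1-ETO9a, against 10.11, 5.60, 9.35 and 10.58 in control cells, and its difference of -0.32 became -1.40 (adjusted p = 0.00561). Genes called only with the array included Emp1, a membrane protein (1.72 and 1.38, adjusted p = 0.0321 and 0.0663), and Emilin1, a matrix glycoprotein (1.35 and 1.01, adjusted p = 0.0405 and 0.0652). The call of Emp1 also ended without AML1-ETO9a replicate 1, 2 or 4 or control replicate 1 or 3 (up to 0.107), and that of Emilin1 without any AML1-ETO9a array, control replicate 1 or 4, replicate 1 or 2 of wild-type AML1-ETO9a or else any wild-type control array (up to 0.119) and with the replicate block (adjusted p = 0.0519). With the replicate block and all arrays Phlda1 (adjusted p = 0.00104), Stfa2 (0.00504), Clec10a (0.0375) and Klrb1f (0.0487) passed as well. The 25 largest rises kept their calls without control replicate 2.

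**Figure D4:**
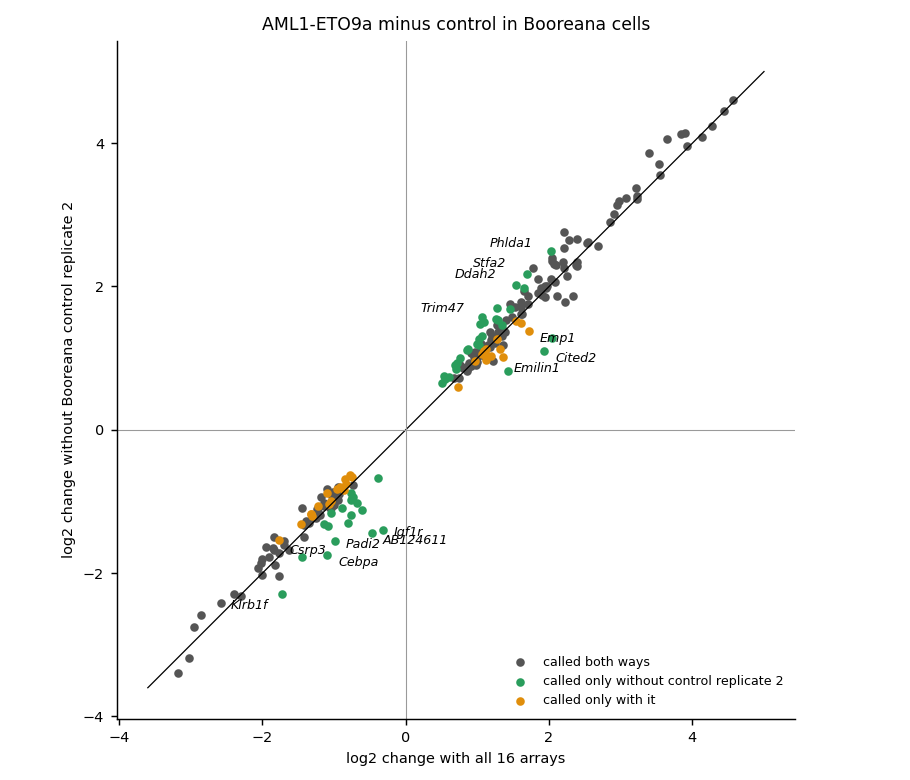
Log2 change of every gene called with or without Booreana control replicate 2, with all 16 arrays across and without that array up the page. Points on the line do not move; Igf1r, Cebpa and Klrb1f lie below it, and Phlda1, Stfa2 and Ddah2 above it.

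Arrays of the 2 Booreana groups did not overlap in 637 of 8833 genes (7.21%), and in 172 of the 177 called genes. The 5 called genes with overlapping arrays, named after their values were seen, were Arg1, Pdpn, Notch4, Emp1 and Rgl1. Arg1, arginase 1 of alternatively activated macrophages, rose by 4.14 ± 0.89 (adjusted p = 0.026), and by 4.08 without control replicate 2 (adjusted p = 0.0436). It lay at 12.34, 13.33, 12.62 and 14.28 with AML1-ETO9a and at 6.58, 8.92, 8.08 and 12.43 in control cells, where replicate 4 was brighter than AML1-ETO9a replicate 1.

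The response of Booreana cells was then set against that of wild-type cells, by the difference between the 2 changes in the same model. Of the 177 called genes 169 had the same sign of change in wild-type cells. The share with the same sign over all tested genes was not counted, so this number is not read as a result about the called genes. The difference itself was called for 11 of 12760 probes (0.0862%), 9 positive and 2 negative, and for 37 probes with the replicate block. Left out 1 at a time, arrays moved this count most where Booreana AML1-ETO9a replicate 3 (7 probes), wild-type AML1-ETO9a replicate 2 (6) or wild-type control replicate 1, 2, 3 or 4 (7, 4, 4 and 5) was missing. In 4 genes AML1-ETO9a raised the level in Booreana cells and the response differed: Cited4, Ackr1, Gfi1 and Slamf1. Cited4 rose in Booreana cells and changed by -1.54 ± 0.40 in wild-type cells (adjusted p = 0.0392), a difference of 4.49 ± 0.57 (adjusted p = 0.00522). Gfi1 also moved in opposite directions, with -1.07 ± 0.23 in wild-type cells (adjusted p = 0.0126) and a difference of 2.46 ± 0.33 (adjusted p = 0.00522). By level, Gfi1 averaged 8.59 with AML1-ETO9a and 7.20 with the control vector in Booreana cells, and 10.07 and 11.14 in wild-type cells, so the 2 genotypes were closer with the oncogene. Ackr1 differed by 0.61 ± 0.30 in wild-type cells, not past the threshold, and the difference was 2.61 ± 0.43 (adjusted p = 0.0241). Slamf1 was undetected in wild-type cells with either virus, and the difference was 2.35 ± 0.36 (adjusted p = 0.0166). It passed the detection filter only through the Booreana AML1-ETO9a arrays. Its difference therefore sets that group against background in the other groups, and its adjusted p is no separate support. In 4 other named genes the response passed the test in wild-type cells and not in Booreana cells. Vcam1, a vascular adhesion molecule, fell by 2.76 ± 0.28 in wild-type cells and was near background in Booreana cells, at 5.55, 5.56, 5.28 and 5.21 with AML1-ETO9a and 5.11, 4.86, 5.74 and 5.15 with the control vector, of which 1 array detected it (difference 2.94 ± 0.39, adjusted p = 0.00522). Tmc7 and Orm1 were detected on 0 Booreana arrays, so a fall there could not be read, and fell in wild-type cells, with differences of 2.37 ± 0.35 and 2.0 ± 0.26. Orm1 passed the detection filter only through the wild-type control arrays, so the same limit holds for it. Lmna, lamin A/C, rose by 1.75 ± 0.19 in wild-type cells and differed by 0.09 ± 0.19 in Booreana cells, where control cells were brighter than wild-type control cells (difference -1.66 ± 0.27, adjusted p = 0.0241). Other probes of Lmna gave 0.82, 0.57, 0.42 and 0.29 in Booreana cells, not past the threshold, and none of them was called in the difference. Without Booreana control replicate 2 the difference had adjusted p-values of 0.00355 for Cited4, 0.0178 for Ackr1, 0.00355 for Gfi1 and 0.0281 for Slamf1. The other 3 probes called, named after their values were seen, read Gca, Cldn15 and Dmwd, and brighter probes stood for these genes. The probe of Cldn15 passed the detection filter only through the wild-type control arrays, so the limit given for Orm1 holds for it. Genes with large changes in Booreana cells and small ones in wild-type cells, such as B4galnt4 (difference -2.68 ± 0.54, adjusted p = 0.0837), Spic (2.23 ± 0.43, adjusted p = 0.0734), Serpinb1a (1.46 ± 0.30, adjusted p = 0.0837) and Tph1 (4.29 ± 1.30, adjusted p = 0.393), did not pass the test of the difference.

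**Figure D5:**
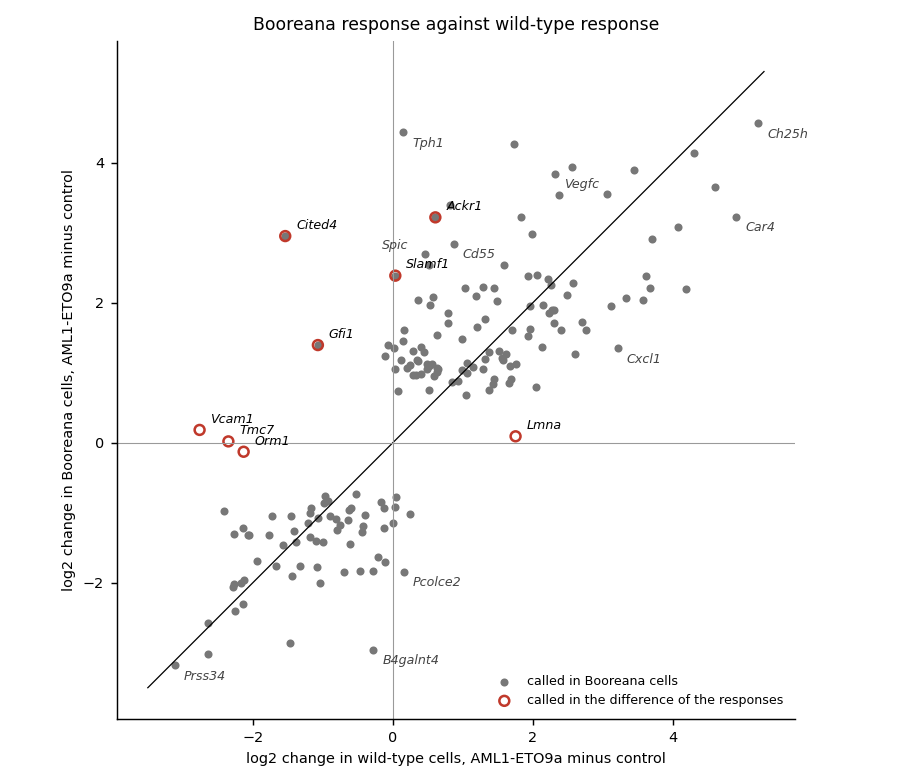
Log2 change with AML1-ETO9a in Booreana cells (up the page) against that in wild-type cells (across) for genes called in Booreana cells, in grey, and for genes called in the difference of the 2 responses, ringed in red. Cited4 and Gfi1 lie in the quadrant that is positive in Booreana and negative in wild-type cells, and Vcam1, Tmc7 and Orm1 lie near 0 in Booreana cells.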

How the data were processed

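RNA was read on Illumina mouse Ref-8 BeadChips, 1 array a sample. The deposited table gives each probe's intensity, with no background subtracted, and its detection p-value, per the file headers; its scanner software is not named there. The authors also deposited processed log2 values, whose median is 8.34 for each array; the submitters' processing notes name lumi, the settings are unknown, and it served as an alternative. From the intensities, nec in limma 3.58.1 (R 4.3.3) gave normexp background correction (offset 16), followed by quantile normalization and log2. Probes detected (p under 0.05) on at least 4 of 16 arrays were tested with lmFit and eBayes on 4 group means, with Benjamini-Hochberg adjustment over all probes and a threshold of 0.05. Of 25697 probes 23978 had 1 gene symbol in the platform annotation. The scripts were tested on simulated data.

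Arrays of equal replicate number deviated together (correlations 0.36 to 0.42 over probes, against -0.38 to 0.25 for unequal numbers), so the numbers pair the arrays; the pairing comes from the titles. Pairs entered as a fixed block, an alternative to the fit without them. Other alternatives were no background correction, no scaling, cyclic loess, other detection filters, array weights, Booreana arrays alone and each array left out.

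Named genes were the 25 largest rises and falls without overlap of the arrays, leaving out clone symbols, up to 6 called and 3 other members of each gene list, fixed regulators, genes called in the difference, and genes called only with or without Booreana control replicate 2. The members and lists were chosen with earlier results of these data known, and no list was given a test.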

Additional observations from a re-analysis of the deposited data

Results flagged for a closer look

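Of the 154 genes named, 8 had a response that differed between Booreana and wild-type cells by the test of the difference. The Booreana change minus the wild-type change was 4.49 for Cited4, 2.94 for Vcam1, 2.61 for Ackr1, 2.46 for Gfi1, 2.37 for Tmc7, 2.35 for Slamf1, 2.00 for Orm1 and -1.66 for Lmna. Slamf1 passed the detection filter only through Booreana AML1-ETO9a arrays and Orm1 only through wild-type control arrays, the groups where they are high.

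An array was called distant where its gap to the nearest other array made up most of the range of its group, whatever the size of the gap. Some gaps were small, as for Bex6 with AML1-ETO9a, at 5.61, 5.60, 5.60 and 5.49. A single array was distant from the other 3 in 28 of 308 groups looked at. The genes were chosen in part by values that such arrays set, so this count cannot be held against a chance rate. AML1-ETO9a replicate 4 was the distant array for 7 genes: Mpo (5.09) and Bex6 (5.49) were low on it, and Serpina3b (8.68), Cma1 (9.29), Mmp8 (9.63), Lgmn (11.12) and Lyz2 (15.05) high. Control replicate 2 was distant for 10 genes, low in Lyz2 (5.86), Cited2 (6.30), Myc (4.88), Mcm3 (4.99), Cdca8 (5.80), Pfkp (5.04), Hk1 (5.10), Pecam1 (7.21) and Cbfb (11.76) and high in Phlda1 (11.30). AML1-ETO9a replicate 1 was distant for Serpinb1a (13.61) and Ear6 (7.25), AML1-ETO9a replicate 2 for Cdca8 (10.36), Ep300 (9.59) and Emilin1 (9.70), and AML1-ETO9a replicate 3 for Idi1 (6.03). In control cells replicate 3 was distant for Ifitm1 (13.31), and replicate 4 for Prss34 (14.31), Cd200r3 (10.79), Cxcl10 (8.80) and Aldoc (10.02).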

How the results depend on the processing

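The count of 210 probes called in Booreana cells was 256 with no background correction, 216 with cyclic loess (70.4% higher), 251 on the authors' processed values, 210 with no detection filter and 226 with probes detected on all arrays of a Booreana group. It moved further with array weights (532), with the replicate block (453), with the block and control replicate 2 left out (460) and with the Booreana arrays only (63). With no normalization between arrays it was 173. The count of 11 for the difference of the responses was 21 with no background correction, 6 with no normalization between arrays, 28 on the authors' values, 7 with the Booreana detection filter, 59 with array weights, 37 with the replicate block and 56 with the block and control replicate 2 left out. Leaving out 1 array at a time gave 138 to 229 probes in Booreana cells and 4 to 14 for the difference. The cause of these shifts was not tested.

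Under the alternatives run, none of the 75 called genes named changed sign. Among named genes not called, 33 values moved by more than the replicate spread, all under alternatives other than leaving out 1 array. Without control replicate 2 signs changed in some genes not called, such as Myc, Mcm3, Cdca8, Pfkp, Ep300 and Cbfb. These sign changes are not among the 33, because the spread used includes that array. Of 1066 list medians 11 moved, in 7 lists. For the called genes, 666 values under the alternatives other than leaving out 1 array kept their call and 82 lost it, 38 of them with the Booreana arrays only, 13 on the authors' values, 9 with no normalization between arrays and 7 with no background correction. With 1 array left out 1039 values kept the call and 153 lost it. Among the genes named in the report the replicate block changed no other call than those given beside them.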
